A study of Mus musculus with 12 samples.

Results

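Small nucleolar RNAs (snoRNAs) and the genes named for hosting them were followed in mouse embryonic fibroblasts (MEFs) with and without RTF2, a component of the replisome. The set held every gene of the count table whose symbol began with Snora (box H/ACA snoRNAs), Snord (box C/D snoRNAs) or Snhg (snoRNA host genes), together with the host genes Gas5 and Zfas1, provided that it had at least 5 counts over the 12 libraries. Of the 24100 genes in the table, 121 had such a symbol and 97 met the count minimum, comprising 33 box H/ACA snoRNAs, 45 box C/D snoRNAs and 19 host genes. The 24 that did not were 12 genes with no count in any library and 12 with 1 to 4 counts, and 23 of them were box C/D snoRNAs.

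The WT MEFs were Rtf2+/+ and the RTF2-deficient MEFs were Rtf2-/lox, and both genotypes received Cre by retrovirus 72 hrs before RNA extraction. Each genotype was represented in 2 lines (line 1 and line 2) derived from different mothers, with WT littermates as controls, and 3 libraries were made per line and genotype. The MEFs had been immortalized with SV40 large T antigen and the libraries of a group were technical replicates, so p-values measure the spread between libraries and not between embryos. The MEFs came from mid-gestation embryos, and whether polyadenylated RNA was selected is not given in the sources used here. Each library held from 39360167 to 44695002 counts. Rtf2, the targeted gene, lay between 44.8 and 57.8 CPM (counts scaled to library size after TMM normalization) in the 6 WT libraries and between 5.44 and 6.66 CPM in the 6 RTF2-deficient libraries. Of 10 fibroblast markers, 7 exceeded 10 CPM in every library, while Pdgfra, Dcn and Lum did not, and 0 of 15 markers of other cell types did. The libraries labelled WT line 2 stood apart from the other 9: Xist was at most 0.132 CPM and Ddx3y at least 91.8 CPM in them, against at least 102.9 CPM and at most 0.195 CPM elsewhere. Ifit1, an interferon-stimulated gene, varied between libraries, from 92.6 to 901.6 CPM in WT line 2 and from 18.4 to 387.7 CPM in RTF2-deficient line 2, against at most 32.9 CPM in line 1. In line 2 a difference of genotype therefore cannot be told apart from the difference in Xist and Ddx3y, whereas the 6 libraries of line 1 were alike in both.

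Box H/ACA snoRNAs guide the conversion of uridine to pseudouridine in ribosomal and spliceosomal RNA, and box C/D snoRNAs guide methylation of the ribose. In mammals most of them lie in introns of host genes, many of which encode ribosomal proteins and translation factors, and they are released from the excised intron by trimming from both ends. Core proteins that bind the nascent snoRNA protect it from this trimming. Host genes such as Gas5 and the Snhg genes are spliced to long non-coding RNAs while their introns carry the snoRNAs.

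The 5 box H/ACA snoRNAs that differed between the genotypes are printed with the 2 box C/D snoRNAs of highest level, so that the structural classes can be compared. Sequences are the GENCODE M21 transcripts on GRCm38, written 5′ to 3′ with T for U. Capitals mark the letters ACA where they occur in the last 10 bases (box H/ACA), and the letters TGATGA in the first part of the transcript and CTGA in the second (box C/D). Snora81 holds no ACA in that window and Snord88a holds no TGATGA.
Snora68: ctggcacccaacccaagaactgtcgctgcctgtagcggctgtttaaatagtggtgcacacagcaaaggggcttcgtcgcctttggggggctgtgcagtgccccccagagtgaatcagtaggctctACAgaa
Snora41: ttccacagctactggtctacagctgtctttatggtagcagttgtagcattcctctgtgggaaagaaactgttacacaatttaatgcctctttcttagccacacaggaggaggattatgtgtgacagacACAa
Snora5c: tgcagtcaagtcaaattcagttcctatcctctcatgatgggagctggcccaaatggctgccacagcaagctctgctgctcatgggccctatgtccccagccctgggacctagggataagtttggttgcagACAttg
Snora81: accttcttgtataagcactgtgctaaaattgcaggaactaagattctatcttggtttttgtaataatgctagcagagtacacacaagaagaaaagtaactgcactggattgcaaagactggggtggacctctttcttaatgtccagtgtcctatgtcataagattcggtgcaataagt
Snora65: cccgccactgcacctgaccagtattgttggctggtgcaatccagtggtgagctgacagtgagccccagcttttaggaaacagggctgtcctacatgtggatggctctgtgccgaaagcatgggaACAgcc
Snord96a: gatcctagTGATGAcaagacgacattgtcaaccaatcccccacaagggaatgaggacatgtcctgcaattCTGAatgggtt
Snord88a: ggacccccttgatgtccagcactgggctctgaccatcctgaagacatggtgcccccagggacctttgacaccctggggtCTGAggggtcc

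On GRCm38, Snora65 is at chr2:32963291-32963420 on the plus strand within Rpl12. Snora41 is at chr1:63179004-63179135 on the plus strand within Eef1b2. Snora5c is at chr11:6620319-6620454 on the minus strand within Tbrg4, and Snora81 is at chr16:23110756-23110933 on the plus strand within Eif4a2. Snord96a is at chr11:48802032-48802112 within Rack1 and Snord88a at chr7:44250135-44250224 within 2410002F23Rik, both on the plus strand. Snora41 overlaps no annotated exon of its host. Snora65 and Snora81 lie wholly inside an exon of host transcripts annotated as retained introns, and Snora5c overlaps a host exon in part. Of all 78 snoRNAs, 34 lie wholly inside an annotated exon of the host, in 25 cases only in transcripts annotated as retained introns, so that reads from such transcripts and from the snoRNA share the same bases.

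The classes differed in these features. The box H/ACA snoRNAs were 121 to 196 bases long (median 132) and the box C/D snoRNAs 64 to 238 bases (median 80). A total of 16 of 45 box C/D snoRNAs, and 0 of 33 box H/ACA snoRNAs, were shorter than the 75-base reads. ACA in the last 10 bases occurred in 31 of 33 box H/ACA and 6 of 45 box C/D members, against 47.4% of 1507 snoRNA transcripts in the annotation. TGATGA followed by CTGA occurred in 27 of 45 box C/D and 0 of 33 box H/ACA members, against 22.2% of those transcripts. A copy of at least 90% identity exists in another annotated gene for 23 of the 78 snoRNAs, among them Snora68, Snora41, Snora5c, Snora81 and Snora65. Counts of these are uncertain where reads could be divided between copies.

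Most snoRNAs were measured from few reads. Per library, all box H/ACA snoRNAs together had 289 to 826 counts, all box C/D snoRNAs 267 to 584, and the host genes 11494 to 16298. Snora65 alone took 28.2% of the box H/ACA counts and Snora68 13.8%. Snord96a, which guides a methylation in rRNA, took 24.6% of the box C/D counts, and Gas5 took 35.0% of those of the host genes. Per kilobase of annotated exon, Gas5 had 30.6 CPM, Snord96a 27.9 and Snora65 27.9. For host genes this length joins the exons of all annotated transcripts, retained introns included, and for Gas5 it covers 3760 of 4118 bases. It can exceed the length of the spliced RNA, so host genes and snoRNAs cannot be compared by level per length. The median was 1.19 CPM per kilobase for box H/ACA, 1.26 for box C/D and 6.88 for the 17 host genes with a length.

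The comparison of genotypes asked how the loss of RTF2 altered each RNA. Differences were tested with edgeR's quasi-likelihood test over all genes that passed a filter on low counts (about 0.238 CPM in at least 3 libraries), with terms for line and genotype, and p-values were adjusted by Benjamini-Hochberg over all 14263 genes tested. Of the 97 members 46 passed the filter, namely 15 box H/ACA, 13 box C/D and 18 host genes. Snora44, Snora5c, Snord16a and Snord72 passed through the RTF2-deficient libraries alone, so their tests depend on levels that were already high in that genotype. The 51 others were not tested, and none of these snoRNAs had over 20 counts in a library.

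A total of 5 box H/ACA snoRNAs and 1 host gene were higher in RTF2-deficient MEFs at an adjusted p under 0.05, and no member was lower. The box H/ACA snoRNAs were Snora68, Snora5c, Snora41, Snora81 and Snora65, and the host gene was Snhg16. These 6 are 13.0% of the 46 tested members, beside 4.98% of all genes tested that were called higher and 8.18% that were called lower. By class, 5 of 15 box H/ACA snoRNAs (33.3%), 0 of 13 box C/D snoRNAs and 1 of 18 host genes (5.56%) were called higher. The host share is near that of all genes. The 5 include Snora5c, which passed the filter through the RTF2-deficient libraries alone. Snora68, Snora5c, Snora41 and Snora81 also exceeded a log2 fold change of 1, as did 0.505% of all genes in that direction and 1.22% in the other. For the 0 members called lower, 1 (Snora28) had an unadjusted p under 0.05 in edgeR's fit, and DESeq2 also called 0.

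**Figure D1:**
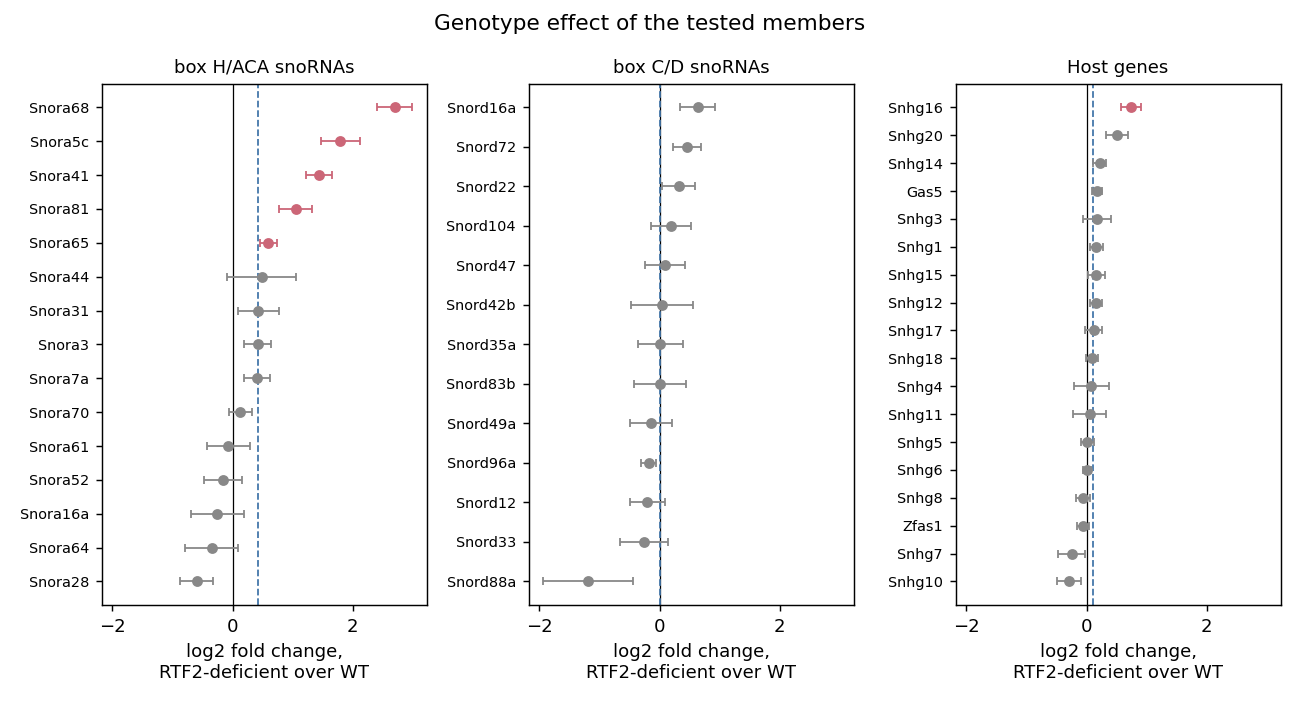
Log2 fold change of RTF2-deficient over WT MEFs (horizontal axis) for each tested member, in panels by class, with bars of 1 standard error, adjusted p under 0.05 in red, and the class median as a dashed line. A total of 5 box H/ACA snoRNAs between 0.59 and 2.70 and the host gene Snhg16 at 0.74 are red, and no box C/D snoRNA is.

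The classes had different medians. The median log2 fold change was 0.42 for the 15 tested box H/ACA snoRNAs, 10 of which lay above 0. It was 0.01 for the 13 tested box C/D snoRNAs (8 above 0) and 0.11 for the 18 tested host genes (14 above 0), beside 0.0019 over all genes tested. These medians cover only the members that passed the filter and carry no test of the classes against each other. Without the filter the medians over all members were 0.42, 0.05 and 0.11.

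Snora68, a guide for the large-subunit rRNA, showed the largest difference. It had 0.215, 0.570 and 0.651 CPM in WT line 1 and 1.72, 2.94 and 3.22 CPM in RTF2-deficient line 1. It had 0.456, 0.485 and 0.472 CPM in WT line 2 and 4.35, 4.28 and 2.24 CPM in RTF2-deficient line 2. Every RTF2-deficient library exceeded every WT library, in counts 72 to 181 against 9 to 27. The mean was 5.49-fold higher in line 1 and 7.70-fold higher in line 2. The log2 fold change was 2.70 (SE 0.29, adjusted p = 0.00011 by edgeR's quasi-likelihood test), and within the lines it was 2.45 (adjusted p = 0.0082) and 2.94 (adjusted p = 0.0012).

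Snora41 had 0.191, 0.272 and 0.265 CPM in WT line 1 and 0.597, 0.711 and 0.853 CPM in RTF2-deficient line 1. It had 0.261, 0.397 and 0.543 CPM in WT line 2 and 0.962, 1.28 and 0.814 CPM in RTF2-deficient line 2. The genotypes did not overlap over both lines, although the highest WT library of line 2, at 23 counts, was close to the lowest RTF2-deficient library of line 1, at 25. Its log2 fold change was 1.44 (SE 0.22, adjusted p = 0.0011 by edgeR's quasi-likelihood test), with 1.56 in line 1 (adjusted p = 0.030) and 1.35 in line 2 (adjusted p = 0.016).

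Snora5c was the rarest of the 5. It had 0.0478, 0.124 and 0.193 CPM in WT line 1, from 2, 5 and 8 counts, and 0.287, 0.441 and 0.585 CPM in RTF2-deficient line 1. It had 0.109, 0.198 and 0.165 CPM in WT line 2 and 0.433, 0.795 and 0.407 CPM in RTF2-deficient line 2. Again all 6 RTF2-deficient libraries, at 12 to 31 counts, exceeded all 6 WT libraries, at 2 to 9 counts. The log2 fold change was 1.79 (SE 0.33, adjusted p = 0.0038 by edgeR's quasi-likelihood test), with 1.82 in line 1 (adjusted p = 0.081) and 1.77 in line 2 (adjusted p = 0.031). No WT library reached the filter's level, so the gene entered the test through the libraries in which it was high. Snora68, Snora41 and Snora5c were the 3 tested members whose genotypes were separated over both lines, beside 1.56% of all genes tested with the RTF2-deficient libraries above. Of the members too rare to test, 2 box C/D snoRNAs had this order as well, Snord66 at 0 to 1 counts in WT and 2 to 5 in RTF2-deficient libraries, and Snord73a at 0 to 4 and 4 to 10 counts. For Snord73a the order holds in CPM only, as both genotypes had libraries with 4 counts. The share of all untested genes with this order was not computed, so nothing is concluded from these 2.

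**Figure D2:**
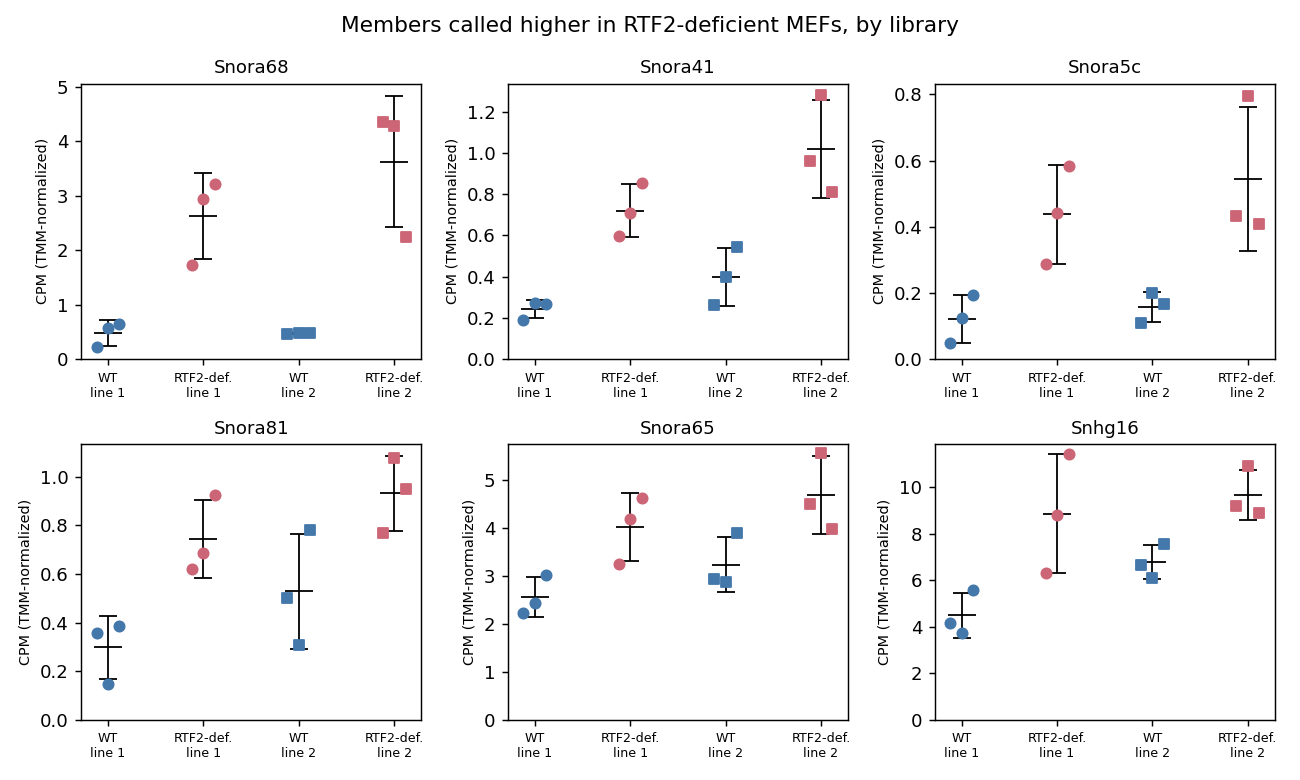
TMM-normalized CPM in each library (points) of the 6 members called higher in RTF2-deficient MEFs, by genotype and line (n = 3 libraries per group), with the mean and 1 SD. The RTF2-deficient points (red) of Snora68, Snora41 and Snora5c lie above all WT points (blue), while those of Snora65 and Snhg16 overlap WT points of the other line and those of Snora81 also WT points of line 2 within that line.

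Snora81 had 0.358, 0.149 and 0.386 CPM in WT line 1 and 0.621, 0.687 and 0.926 CPM in RTF2-deficient line 1. In line 2 it had 0.499, 0.309 and 0.779 CPM in WT and 0.770, 1.08 and 0.949 CPM in RTF2-deficient MEFs. The genotypes were apart in line 1, whereas in line 2 the highest WT library exceeded the lowest RTF2-deficient library. The log2 fold change was 1.05 (SE 0.28, adjusted p = 0.028 by edgeR's quasi-likelihood test), and in neither line alone did it pass in this layout (adjusted p = 0.13 and 0.19). A replicate block in the 9 libraries outside RTF2-deficient line 2 was added after seeing the data. With it Snora81, Snora5c and Snora65 were called in line 1 (adjusted p = 0.045, 0.022 and 0.023 by the same test). The call of Snora81 over both lines was lost when any of 4 libraries was left out, giving an adjusted p of 0.051 or 0.062 when replicate 2 or 3 of RTF2-deficient line 1 was omitted. Omitting replicate 2 of WT line 2 gave 0.058, and omitting replicate 2 of RTF2-deficient line 2 gave 0.068.

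Snora65, the most abundant box H/ACA snoRNA and a guide for the large-subunit rRNA, had the smallest difference of the 5. It had 2.22, 2.43 and 3.01 CPM in WT line 1 and 3.25, 4.19 and 4.63 CPM in RTF2-deficient line 1. Line 2 showed 2.93, 2.87 and 3.90 CPM in WT and 4.50, 5.57 and 3.98 CPM in RTF2-deficient MEFs. The genotypes did not overlap within either line, but the highest WT library of line 2 exceeded the lowest RTF2-deficient library of line 1. Its counts were 93 to 165 in WT and 136 to 217 in RTF2-deficient libraries. The log2 fold change was 0.59 (SE 0.14, adjusted p = 0.016 by edgeR's quasi-likelihood test), and within the lines it was 0.65 (adjusted p = 0.13) and 0.53 (adjusted p = 0.11).

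The 10 other tested box H/ACA snoRNAs were not called. Their log2 fold changes ran from -0.60 for Snora28 (SE 0.28, adjusted p = 0.17 by edgeR's quasi-likelihood test) to 0.48 for Snora44, which had between 0 and 14 counts per library. Snora70, a guide for the small-subunit rRNA and among the 3 most abundant of its class, had a mean of 0.751 ± 0.248 CPM (SD, n = 3) in WT line 1 and 0.857 ± 0.0388 CPM in RTF2-deficient line 1. In line 2 the means were 1.02 ± 0.208 CPM and 1.07 ± 0.201 CPM, and the log2 fold change was 0.13 (SE 0.19). The difference was smaller than the SD of the WT libraries in each line.

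Among the 13 tested box C/D snoRNAs 0 were called in either direction, beside 4.98% of all genes called higher and 8.18% called lower. With 13 genes tested, 0 is near these shares. Of the 13, 0 had an unadjusted p under 0.05 in edgeR's fit, and DESeq2 called 0. Without a filter on counts, the rare box C/D snoRNAs Snord66 (log2 fold change 2.54, adjusted p = 0.030 by edgeR's quasi-likelihood test) and Snord73a (1.79, adjusted p = 0.031) were called in addition to the 6 members, beside 3.16% of 19682 genes called higher. The standard errors of the 13 on the log2 scale ran from 0.13 to 0.74 with a median of 0.33, beside a median of 0.29 for the box H/ACA snoRNAs. Snord96a had 1.67, 1.88 and 2.27 CPM in WT line 1 and 1.86, 1.96 and 2.12 CPM in RTF2-deficient line 1. In line 2 it had 2.69, 2.87 and 3.16 CPM in WT and 2.48, 2.18 and 1.99 CPM in RTF2-deficient MEFs. Its genotypes overlapped in line 1, and in line 2 all 3 RTF2-deficient libraries were below all 3 WT libraries. The log2 fold change was 0.03 in line 1 and -0.39 in line 2 (adjusted p = 0.15), and -0.18 over both lines (SE 0.13, adjusted p = 0.38 by edgeR's quasi-likelihood test).

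Snord88a varied widely between libraries of one group. It had 32, 44 and 57 counts in WT line 1 and 0, 13 and 32 counts in RTF2-deficient line 1. Line 2 showed 62, 35 and 85 counts in WT and 68, 24 and 0 counts in RTF2-deficient MEFs. A library without a count allows up to 3 counts, at most 0.0762 CPM of the library total without TMM scaling, which covers counting error only. No WT library was at 0, yet 2 RTF2-deficient libraries were, and the difference did not pass (log2 fold change -1.19, SE 0.74, adjusted p = 0.31 by edgeR's quasi-likelihood test). Snord88a and Snord88c differ at 5 of 90 positions, so that reads could be divided between them, although Snord88c had only 0 to 4 counts per library. Snord88a also lies wholly inside an exon of a protein-coding transcript of its host 2410002F23Rik, with which it could share reads. The part of either in these counts was not tested. Snord104 had means of 0.557 and 0.696 CPM in WT and RTF2-deficient line 1 and of 0.531 and 0.550 CPM in line 2, with SDs between 0.107 and 0.311 CPM (n = 3).

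Snhg16 was the host gene that differed, with a log2 fold change of 0.74 (SE 0.16, adjusted p = 0.011 by edgeR's quasi-likelihood test). It is at chr11:116671660-116675799 on GRCm38, and its introns hold snoRNAs of the Snord1 family. It had 4.18, 3.71 and 5.60 CPM in WT line 1 and 6.33, 8.83 and 11.5 CPM in RTF2-deficient line 1. In line 2 it had 6.67, 6.11 and 7.56 CPM in WT and 9.21, 10.9 and 8.88 CPM in RTF2-deficient MEFs. The genotypes did not overlap within either line, but over both lines they did. The difference was 0.98 in line 1 (adjusted p = 0.036) and 0.51 in line 2 (adjusted p = 0.15), and its change between the lines was not called (adjusted p = 0.83). Snord1b and Snord1c, which it hosts, had at most 7 and 5 counts in a library and were not tested.

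The 17 other tested host genes had log2 fold changes between -0.29 (Snhg10) and 0.50 (Snhg20, adjusted p = 0.096), and 1 of them had an unadjusted p under 0.05. Gas5, whose introns carry many box C/D snoRNAs, had 94.8, 103.6 and 122.5 CPM in WT line 1 and 109.8, 121.8 and 144.6 CPM in RTF2-deficient line 1. Line 2 showed 96.6, 110.6 and 119.2 CPM in WT and 120.0, 124.8 and 111.4 CPM in RTF2-deficient MEFs. The genotypes overlapped in both lines, although in line 1 each RTF2-deficient library exceeded the WT library of the same replicate number (3 of 3). Over both lines the log2 fold change was 0.18 (SE 0.085, adjusted p = 0.19 by edgeR's quasi-likelihood test). Snhg1 and Snhg5, the next most abundant by count, had log2 fold changes of 0.16 (SE 0.10) and 0.01 (SE 0.11).

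To ask whether an intronic snoRNA moved with its host, the log2 ratio of snoRNA to host was compared between genotypes for pairs in which both were tested, of which 26 are given here. Rpl12, Eef1b2 and Eif4a2, the hosts of Snora65, Snora41 and Snora81, were not called. The log2 fold change was -0.02 for Rpl12 (SE 0.12), which encodes a ribosomal protein. It was 0.02 for Eef1b2 (SE 0.13), which encodes a translation elongation factor subunit, and -0.09 for Eif4a2 (SE 0.072), which encodes an RNA helicase of translation initiation. Tbrg4, the host of Snora5c and a gene for a mitochondrial RNA-binding protein, was higher in RTF2-deficient MEFs by 1.09 (SE 0.11, adjusted p = 0.00010 by edgeR's quasi-likelihood test). It lay between 33.4 and 48.0 CPM in the WT libraries and between 69.9 and 107.9 CPM in the RTF2-deficient libraries, without overlap.

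**Figure D3:**
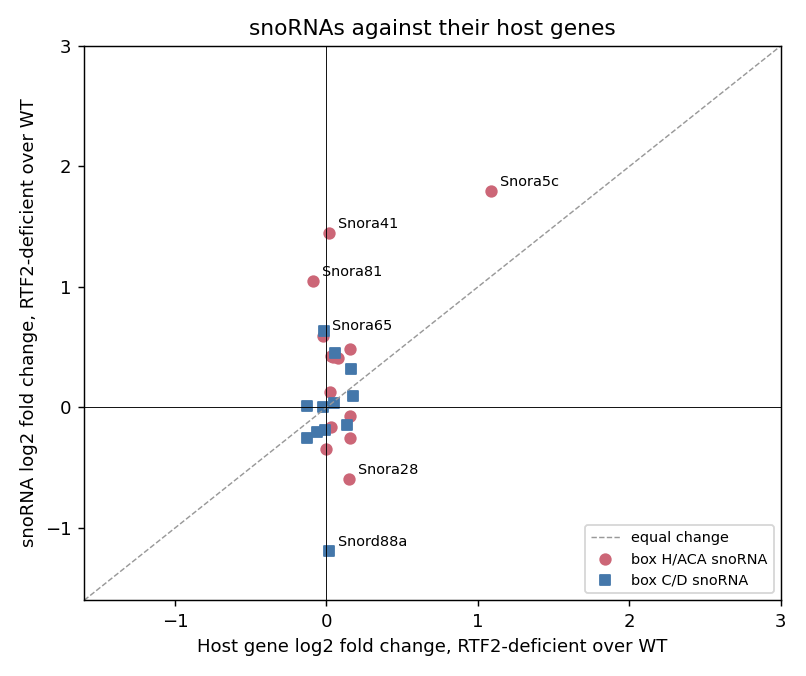
Log2 fold change of each snoRNA (vertical axis) against that of its host gene (horizontal axis), RTF2-deficient over WT MEFs, for 26 pairs in which both were tested; the dashed line marks equal change. Snora41, Snora81 and Snora65 rise above hosts that lie near 0, Snora5c lies above Tbrg4 at 1.09, and Snora28 lies below its host Eif5.

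The ratio to the host was higher in RTF2-deficient MEFs for Snora41 by 1.32, Snora81 by 1.14 and Snora65 by 0.60 on the log2 scale. Each had p = 0.005 in an exact two-sided permutation test of genotype within lines, the smallest that 400 arrangements can give, and an adjusted p of 0.034 over 27 pairs. These calls were lost when single libraries were left out, which leaves 200 arrangements and no p below 0.01. Snora41 was lost without replicate 2 or 3 of RTF2-deficient line 2, Snora81 without any replicate of it, and Snora65 without any of these or replicate 2 of WT line 2, at adjusted p of 0.054 to 0.108 in the same exact permutation test. The ratio of Snora28 to its host Eif5 went the other way, by -0.73 (exact permutation p = 0.01, adjusted p = 0.054), and was lower in both lines. For Snora5c and Tbrg4 the ratio differed by 0.45 (exact permutation p = 0.03, adjusted p = 0.09), and by 0.70 with a prior count of 0.5 and 0.15 with a prior count of 5 (adjusted p = 0.077 and 0.53). Eif4a2 also hosts the box C/D snoRNA Snord2, which had 2 to 13 counts in the WT and 0 to 12 in the RTF2-deficient libraries, while Snora81 had 6 to 33 and 26 to 42. Of the 12 box C/D ratios 0 passed, and 2 had an unadjusted p under 0.05 in the same exact permutation test.

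Summed over the class, box H/ACA snoRNAs made up 8.50 ± 2.24 CPM of the library, without TMM scaling, in WT line 1 and 13.6 ± 3.33 in RTF2-deficient line 1 (SD, n = 3). In line 2 they made up 11.5 ± 2.72 and 17.7 ± 3.52. The RTF2-deficient mean was 1.60 and 1.53 times that of WT, although libraries overlapped in both lines. In line 1 the RTF2-deficient sum exceeded that of the WT library with the same replicate number in 3 of 3 cases. The host sum did so in 3 of 3 cases as well, and the box C/D sum in 2 of 3. Without Snora68 the box H/ACA ratios were 1.37 and 1.27, and without the 5 called snoRNAs they were 1.09 and 1.04. Box C/D snoRNAs summed to 7.99 ± 2.22 and 8.19 ± 1.81 CPM in line 1 and to 11.1 ± 2.69 and 9.68 ± 1.87 in line 2, with ratios of 1.02 and 0.87. For the host genes the ratios were 1.10 and 1.05. In bulk RNA, a change in the share of cells of a kind and a change in the RNA per cell cannot be told apart.

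**Figure D4:**
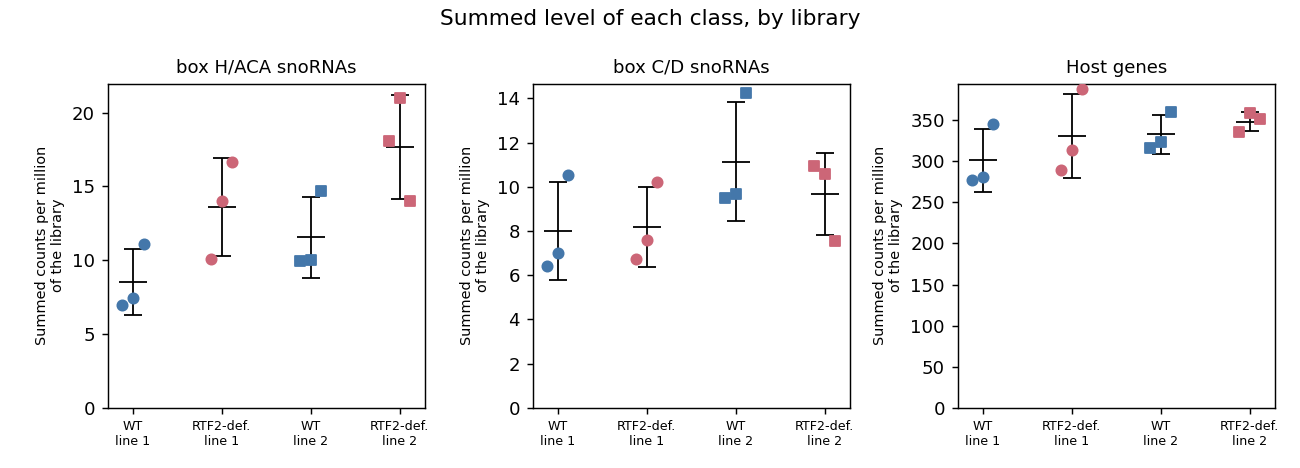
Summed counts of each class as CPM of the library, without TMM scaling (vertical axis), by library (points), genotype and line, with the mean and 1 SD (n = 3). Box H/ACA sums lie between 6.97 and 14.7 in WT and between 10.1 and 21.0 in RTF2-deficient libraries, and the box C/D and host sums overlap widely between genotypes.

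The summed classes also varied between libraries of one group. In 3 of the 4 groups 1 library was the lowest for all 3 classes, which was replicate 1 in WT line 1, RTF2-deficient line 1 and WT line 2. RTF2-deficient line 1 replicate 1 was the lowest of its group for all 6 called members, and RTF2-deficient line 2 replicate 3 for 5 of them. Leaving out either library kept all 6 calls.

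Within line 1, 3 members were called higher (Snora68, Snora41 and Snhg16) and 0 lower, which is 6.52% of those tested beside 0.68% of all genes higher and 2.52% lower. Libraries with the same replicate number deviated together in WT line 1, RTF2-deficient line 1 and WT line 2. With replicate number as a block in these 9 libraries, 7 members were called higher in line 1, beside 2.33% of all genes higher and 5.34% lower, and without the block 1 (Snora68) was, beside 0.449% and 2.06%. The 7 were the 5 box H/ACA snoRNAs named above, Snhg16 and Gas5, the last with a log2 fold change of 0.23 (adjusted p = 0.035 by edgeR's quasi-likelihood test).

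Within line 2, 3 were called higher (Snora68, Snora41 and Snora5c) and 0 lower, beside 5.42% of all genes higher and 7.03% lower. The difference between the lines was called for 0 members in edgeR's fit, which had 0 at an unadjusted p under 0.05, and for 0 in DESeq2, beside 0.757% and 0.533% of all genes that were higher and lower. Between the WT lines, which share their genotype, 2 members were called, 4.35% of those tested and both higher in line 2, beside 6.7% of all genes higher and 7.31% lower. These were Snord96a (log2 fold change 0.58, adjusted p = 0.039 by edgeR's quasi-likelihood test) and Snhg15 (0.74, adjusted p = 0.024). None of the 6 members called between genotypes was called in this fit, where Snora68 differed by -0.02 and Snora81 by 0.82 (adjusted p = 0.22). With the replicate block in the 9 libraries, 5 members were called higher in WT line 2, beside 13.5% of all genes higher and 13% lower. They were Snhg16 (0.61, adjusted p = 0.023 by edgeR's quasi-likelihood test), Snhg15, Snord96a, Snord47 and Snora31. Without the block 1 (Snhg15) was, beside 6.17% and 6.33%. The comparisons of the lines share WT libraries with those of the genotypes.

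The proteins that bind and assemble the snoRNAs were compared from lists of genes. Of the 6 core and assembly genes of box H/ACA particles (Dkc1, Nop10, Nhp2, Gar1, Naf1 and Shq1), 0 were called by edgeR, 1 (Naf1) had an unadjusted p under 0.05, and DESeq2 called 0. Their median log2 fold change was 0.17. Of the 11 core and assembly genes of box C/D particles, 3 were lower and 0 higher in RTF2-deficient MEFs, with a median of 0.05, beside 8.18% of all genes called lower. The 3 were Nufip1, Znhit6 and Pih1d1, which act in the assembly of the particle. The other assembly genes of the list, Znhit3, Ruvbl1, Ruvbl2 and Rpap3, were not called. Nor were the core protein genes Fbl, Nop56, Nop58 and Snu13, which had values between -0.13 and 0.14.

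Nufip1 had 22.8, 24.8 and 28.2 CPM in WT line 1 and 15.6, 16.5 and 18.1 CPM in RTF2-deficient line 1. In line 2 it had 28.9, 29.3 and 28.9 CPM in WT and 19.1, 18.6 and 18.0 CPM in RTF2-deficient MEFs. All 6 RTF2-deficient libraries were below all 6 WT libraries, as they were for Znhit6, beside 4.41% of all genes with this order. Nufip1 fell by 0.62 on the log2 scale (SE 0.060, adjusted p = 5.9e-05 by edgeR's quasi-likelihood test). Znhit6 lay between 22.0 and 29.2 CPM in WT and between 17.4 and 19.5 CPM in RTF2-deficient libraries and fell by 0.51 (SE 0.068, adjusted p = 0.00053). Pih1d1, a subunit of the chaperone complex that joins them, fell by 0.31 (SE 0.079, adjusted p = 0.024). Among the 13 tested box C/D snoRNAs, 0 were called lower, beside 8.18% of all genes. With 13 genes tested, 0 is near that share, and a link of the assembly genes to the snoRNAs was not tested.

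**Figure D5:**
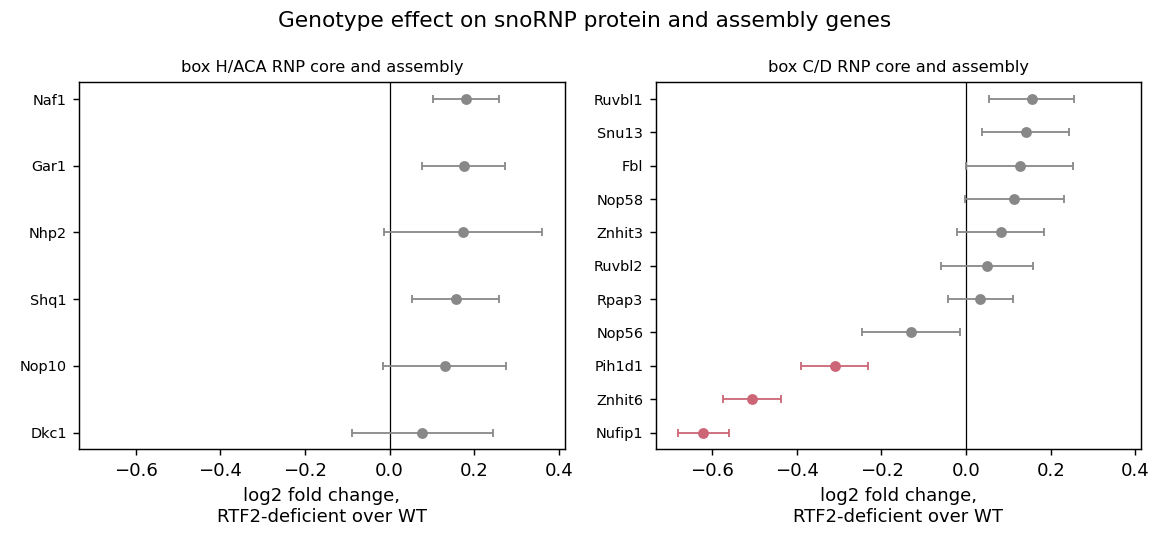
Log2 fold change of RTF2-deficient over WT MEFs (horizontal axis) for the protein genes of box H/ACA and box C/D particles, with bars of 1 standard error and adjusted p under 0.05 in red. Nufip1, Znhit6 and Pih1d1 lie at -0.62, -0.51 and -0.31, and no gene of the box H/ACA list is red.

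Of 12 genes for release, trimming and transport of snoRNAs, 0 were higher and 1 was lower, Parn, a deadenylase that trims RNA ends (log2 fold change -0.25, SE 0.060, adjusted p = 0.017 by edgeR's quasi-likelihood test), which is near the 8.18% of all genes called lower. DESeq2 called 2 of this list higher, beside 9.09% of all genes called higher by DESeq2. Of 10 factors of nonsense-mediated decay, the pathway that degrades many spliced host transcripts, Smg6 was higher (0.16, adjusted p = 0.047) and Smg9 lower (-0.28, adjusted p = 0.0065), beside 4.98% and 8.18% of all genes. DESeq2 called 5 of the 10 higher and 1 lower, beside 9.09% and 9.85% of all genes. The medians were 0.06 and 0.12. Of 16 Cajal body and other small RNAs in the table, 14 did not pass the filter, and Rmrp (0.93, adjusted p = 0.40) and Rpph1 (0.77, adjusted p = 0.28), the RNA subunits of a pair of ribonucleases, were not called.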

How the data were processed

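RNA from 12 libraries of WT and RTF2-deficient MEFs was sequenced (total RNA per the labels, called total messenger RNA in the study's methods, single-end reads). The authors deposited raw counts, as whole numbers per Entrez gene and library, not normalized. Salmon and tximport on mm10 gene models appear in the methods and HTSeq appears in the submitters' processing notes, so the counter is not settled. For strandedness and poly(A) selection the setting is not given in the sources used here. A read shared by a snoRNA and a transcript of its host can be counted for either. Symbols came from RefSeq (24045 of 24100 identifiers). Sequences, exons and host genes (the annotated gene around a snoRNA on its strand) came from GENCODE M21 on GRCm38, the same build as mm10. For Snora17 and Snora43 the host came from RefSeq gene spans.

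Counts were analysed in R 4.3.3 with edgeR 4.0.16 (filterByExpr on the 4 groups, TMM, glmQLFit, glmQLFTest, terms for line and genotype). Within-line effects, the interaction and the comparison of WT lines were contrasts among the 4 groups. CPM values are TMM-normalized. Standard errors were taken as the unshrunken coefficient over the root of F. Ratios to the host used log2 CPM with a prior count of 2 and an exact permutation test in scipy 1.17.1. Of 27 pairs in the adjustment, 1 is not reported here. Near-identical copies were found with BLAST 2.17.0 over at least 80% of the snoRNA. The fit was tested on simulated data. Library totals of 39360167 to 44695002 counts place the limit for a count of 0 (3 counts) at no more than 0.0762 CPM without TMM scaling, for counting error only.

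Other settings tried were upper-quartile or RLE normalization, no filter, 1 CPM in 6 libraries, members left out of library sizes, DESeq2 1.42.0, genotype alone, a replicate block, summed triplicates, each line alone, other prior counts, and each library left out. Genes named were Rtf2, every member called between genotypes or in the interaction, the 3 most abundant members of each class, their hosts, and list genes beyond a log2 fold change of 0.5. Others were named after their values were seen. The members, lists and tests were chosen with earlier results of these data known. Omitting the 5 called snoRNAs, or Snora68, from class sums and a replicate block in 9 libraries were added after seeing the data. Libraries with the same number had correlated deviations from their group means in WT line 1, RTF2-deficient line 1 and WT line 2 (0.29 to 0.62, over 0.1 in 9 of 9 pairs), though nothing in the labels says what a number shares, and not with RTF2-deficient line 2 (-0.59 to 0.17, over 0.1 in 2 of 9).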

Additional observations from a re-analysis of the deposited data

Results flagged for a closer look

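In 52 sets of 6 libraries of one genotype, the highest or lowest library was compared with its nearest neighbour, and 2 stood far from the rest, against about 5% flagged by chance. For Snhg5, RTF2-deficient line 1 replicate 3 was at 28.7 CPM, with the next library at 23.2 CPM, a gap of 0.75 of the whole range. For Eif4a2, the host of Snora81 and Snord2, the same library was at 251.1 CPM, with the next at 214.2 CPM, a gap of 0.64 of the range. It was also the highest of its group for the 6 called members, and Snora81 had an adjusted p of 0.062 without it in edgeR's fit. For Eif4a2 and Snhg5, WT line 1 replicate 3 was the highest of its group as well, at 250.5 and 26.5 CPM.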

How the results depend on the processing

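The 6 calls between genotypes, and the 4 beyond a log2 fold change of 1, held under RLE and upper-quartile normalization, without the members in library sizes, without a filter and in DESeq2. With 1 CPM required in 6 libraries, 3 calls (1 beyond 1) were left, as fewer members were tested. With genotype alone Snora81 was lost (adjusted p = 0.069). With triplicates summed to 4 samples 0 calls were left (0 beyond 1), and Rtf2 itself had an adjusted p of 0.10. With line 2 alone 1 member was called in place of 3. Between the WT lines 1 member was called without a filter, in place of 2. Decay factors called higher were 2 under RLE and 5 in DESeq2, in place of 1, and release and trimming genes 2 in DESeq2, in place of 0. Without the called snoRNAs the box H/ACA sum differed by 0.337 CPM. Rack1 turned to 0.0011 without a filter. The cause of the changes in the lists and in the WT lines was not tested.

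Over all 4 groups the replicate numbers did not pair the libraries, as those of RTF2-deficient line 2 did not go with the same numbers of the others (its replicate 3 correlated with each replicate 1 by 0.51 to 0.65): deviations of libraries with the same number correlated over 0.1 in 11 of 18 pairs, and 5 of 12 libraries matched best with their own number. A replicate block over all 12 libraries gave 1 member between the WT lines, 1 release and trimming gene higher and 0 decay factors higher, and changed no other count of calls by over 1.5 times. In the 9 libraries of the other 3 groups, a replicate block gave 7 members higher within line 1, in place of 3, and 5 between the WT lines, in place of 2, while the same libraries without it gave 1 and 1.

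Leaving out 1 library at a time gave 5 to 6 members higher (3 to 4 beyond 1), 1 to 3 in line 1, 1 to 3 in line 2, and between the WT lines 0 to 3 higher and 0 to 1 lower. Pairs whose ratio passed numbered 0 to 3, and 0 without RTF2-deficient line 2 replicate 2 or 3, when 200 arrangements allow no p below 0.01. Box C/D particle genes called lower were 2 to 3, decay factors higher 0 to 3, and release and trimming genes higher 0 to 1. Class sums differed between genotypes by 4.79 to 6.54 (box H/ACA), -1.14 to 0.144 (box C/D) and 7.96 to 33.4 (host) CPM. Besides the box C/D sum, values that changed sign were those of uncalled genes: 2410002F23Rik -0.037 to 0.085, Eef1b2 -0.053 to 0.093, Rack1 -0.063 to 0.041, Rpl10 -0.047 to 0.067, Rpl12 -0.092 to 0.055 and Snhg5 -0.059 to 0.072. Depth limits most snoRNAs, since 51 of 97 members were too rare to test.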

Other observations

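Some host genes had their lowest level in the same sister library. Of the 19 host genes, 5 shared it in all 4 groups: in each of the 4 groups the library with the lowest Snhg3 was also the lowest for Snhg4, Snhg7, Snhg8 and Gas5, and it was replicate 1 in WT line 1, RTF2-deficient line 1 and WT line 2 and replicate 3 in RTF2-deficient line 2. Within a group the highest library exceeded the lowest by 1.67 to 2.21 times for Snhg3, 1.91 to 2.88 times for Snhg4 and 1.12 to 1.32 times for Gas5. Snhg12 was the highest in that library in 3 of the 4 groups, and Snhg11, Snhg15, Snhg18 and Zfas1 in 2. Rpl12 and Eef1b2, the hosts of Snora65 and Snora41, were lowest there in all 4 groups. For Rpl12 these libraries had 580.7, 568.2, 498.8 and 590.6 CPM, and the others had at least 641.4 CPM. The same libraries had the highest median count over genes of their group (310, 296.5, 362 and 332 counts). The part of these library differences in the results was not tested.

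Of the 3 snoRNAs that share the host Snhg12, none was called, with log2 fold changes of -0.26 for Snora16a, 0.48 for Snora44 and -0.07 for Snora61, and of 0.15 for Snhg12 itself.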
